A study of Mus musculus with 24 samples.

Results

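6 mouse genes named as markers of the fetal-like state of regenerating intestinal epithelium, Ly6a, Clu, Anxa1, Anxa2, Anxa3 and Msln, were followed through colitis and colorectal tumours. They were found by matching the gene identifiers of the deposited tables to these symbols, and all 6 were present among 55487 genes. The mice were C57BL/6, either wild type (WT) or lacking Axin1 in intestinal epithelium alone (KO), while whole tissue was measured. The Axin1 protein holds together the machinery that degrades beta-catenin, the carrier of the Wnt signal. Whole colon came from untreated WT and KO mice kept on water, and from WT and KO mice given dextran sulfate sodium (DSS), a polymer that damages the colonic lining, and killed at day 7 or day 13. Colorectal tumours came from WT and KO mice given the carcinogen azoxymethane (AOM) together with DSS. Each of these 8 groups held 3 libraries, described as biological replicates. The sources used here do not give the driver that deletes Axin1, the deleted part of the gene, the age of the mice or the length of the DSS course.

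After injury, epithelium of the intestine can pass through a state that shares genes with the fetal gut. Adult crypts are kept by Lgr5-expressing stem cells under Wnt signals, and cells that rebuild a damaged surface lower those stem cell genes while they raise surface and repair genes. The transcriptional co-activators YAP and TAZ, which act through TEAD factors and are held back by the Hippo kinases, are known drivers of this state. Ly6a (Sca-1) is a lipid-anchored surface protein, also made by endothelium and lymphocytes and induced by interferon. Msln (mesothelin) is a lipid-anchored surface protein of mesothelium that binds the mucin Muc16. Clu (clusterin) is a secreted chaperone and a marker of revival stem cells. The annexins bind phospholipids in the presence of calcium: Anxa1 is a ligand of formyl peptide receptors, Anxa2 forms a complex with S100a10 at the cell surface, and Anxa3 is a relative found in epithelia and neutrophils.

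Total expected counts per library ran from 15.65 to 28.07 M (mega). Axin1 stood at 47.4 to 58.8 CPM (counts scaled to a common library size) in the WT libraries and at 13.5 to 19.7 CPM in the KO libraries. The 10 epithelial markers summed to between 5506.9 and 18073.5 CPM, so epithelium was present in every library. Y-linked genes were expressed in all untreated KO and WT day 13 libraries and in no WT day 7 or KO day 13 library, with the other groups mixed, so sex and condition cannot be told apart between those groups. In all, 4 libraries stood apart by markers of other cells. Untreated KO replicate 3 held 2516.1 CPM of interferon-response genes against 188.0 to 621.3 in the other untreated libraries, and WT day 7 replicate 2 held 13017.0 CPM of smooth muscle genes. WT day 13 replicate 3 and KO day 13 replicate 1 held 5436.6 and 1217.1 CPM of squamous epithelium genes, against at most 12.2 in the other colon libraries. The Illumina sample numbers 15 and 16 each occur on 2 colon libraries, and the numbers 9 to 14 of the 6 tumours each occur on a colon library as well. The sequencing runs are not given, so a run that differed between tumours and colon cannot be told apart from the tissue. In bulk tissue, fewer cells of a type and less RNA per cell cannot be told apart.

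The genes lie on 6 chromosomes in GRCm38. Ly6a (ENSMUSG00000075602) covers chr15:74994877-74998031 on the minus strand, Clu (ENSMUSG00000022037) chr14:65968483-65981547 on the plus strand, and Anxa1 (ENSMUSG00000024659) chr19:20373428-20390944 on the minus strand. Anxa2 (ENSMUSG00000032231) covers chr9:69453620-69491795 on the plus strand, Anxa3 (ENSMUSG00000029484) chr5:96793339-96845966 on the plus strand, and Msln (ENSMUSG00000063011) chr17:25748613-25754378 on the minus strand. All are protein-coding. Anxa1 overlaps the long noncoding gene 1500015L24Rik, Anxa2 overlaps the antisense gene Gm16144 and the microRNA gene Mir3109, and Anxa3 overlaps Gm42603. Since the strand setting of the counting is not given, reads of the overlapping genes may be mixed with those of these 3 annexins.

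Promoters of Anxa1 and Anxa2 are shown because they were the 2 of the 6 genes matched in the RefSeq promoter table used here, and both rose in tumours. The windows on GRCm38.p6 run from 250 bases before to 50 after the start, at chr19:20390622-20390921 (minus strand) and chr9:69453433-69453732 (plus strand). Both RefSeq starts lie inside the GENCODE gene body given above. The windows were searched on both strands for the TEAD motif CATTCC, in capitals in Anxa1, and the AP-1 motif TGANTCA, in capitals in Anxa2. AP-1 is the family of Fos and Jun factors.
Anxa1 promoter: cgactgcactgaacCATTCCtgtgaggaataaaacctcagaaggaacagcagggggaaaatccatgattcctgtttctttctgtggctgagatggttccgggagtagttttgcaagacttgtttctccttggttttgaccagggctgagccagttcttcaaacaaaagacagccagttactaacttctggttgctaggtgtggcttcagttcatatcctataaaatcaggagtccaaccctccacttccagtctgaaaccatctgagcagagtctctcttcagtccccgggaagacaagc
Anxa2 promoter: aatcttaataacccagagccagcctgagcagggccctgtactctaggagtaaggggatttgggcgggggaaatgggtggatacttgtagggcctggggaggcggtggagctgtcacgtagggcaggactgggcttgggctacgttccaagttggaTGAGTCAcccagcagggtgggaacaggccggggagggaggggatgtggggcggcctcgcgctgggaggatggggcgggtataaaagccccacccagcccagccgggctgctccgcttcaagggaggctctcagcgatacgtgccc
The Anxa1 window held CATTCC at -236 from the start, a motif in 14.7% of the 32851 promoter windows of 300 bases. The Anxa2 window held TGAGTCA at -95, a motif in 7.8% of them. A match is a run of letters and not a measured binding site.

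Across the 8 groups the 6 genes did not follow a common course. Ly6a rose in WT colitis at both times and in WT tumours, and only just passed in KO at day 7 and in KO tumours (adjusted p = 0.0491 and 0.043). Clu and Msln passed the test in tumours but not in colitis. Anxa1 and Anxa2 each rose at 1 time of WT colitis and in tumours, and Anxa3 passed as higher in no comparison. None of the 6 passed between KO and WT with edgeR, while DESeq2 called Clu, Ly6a or Anxa1 in some conditions. Fold changes below are on the log2 scale ± SE from edgeR's quasi-likelihood test, with p-values adjusted by Benjamini-Hochberg over all genes tested and a threshold of 0.05. Levels are CPM, or TPM where genes are compared with each other.

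**Figure D1:**
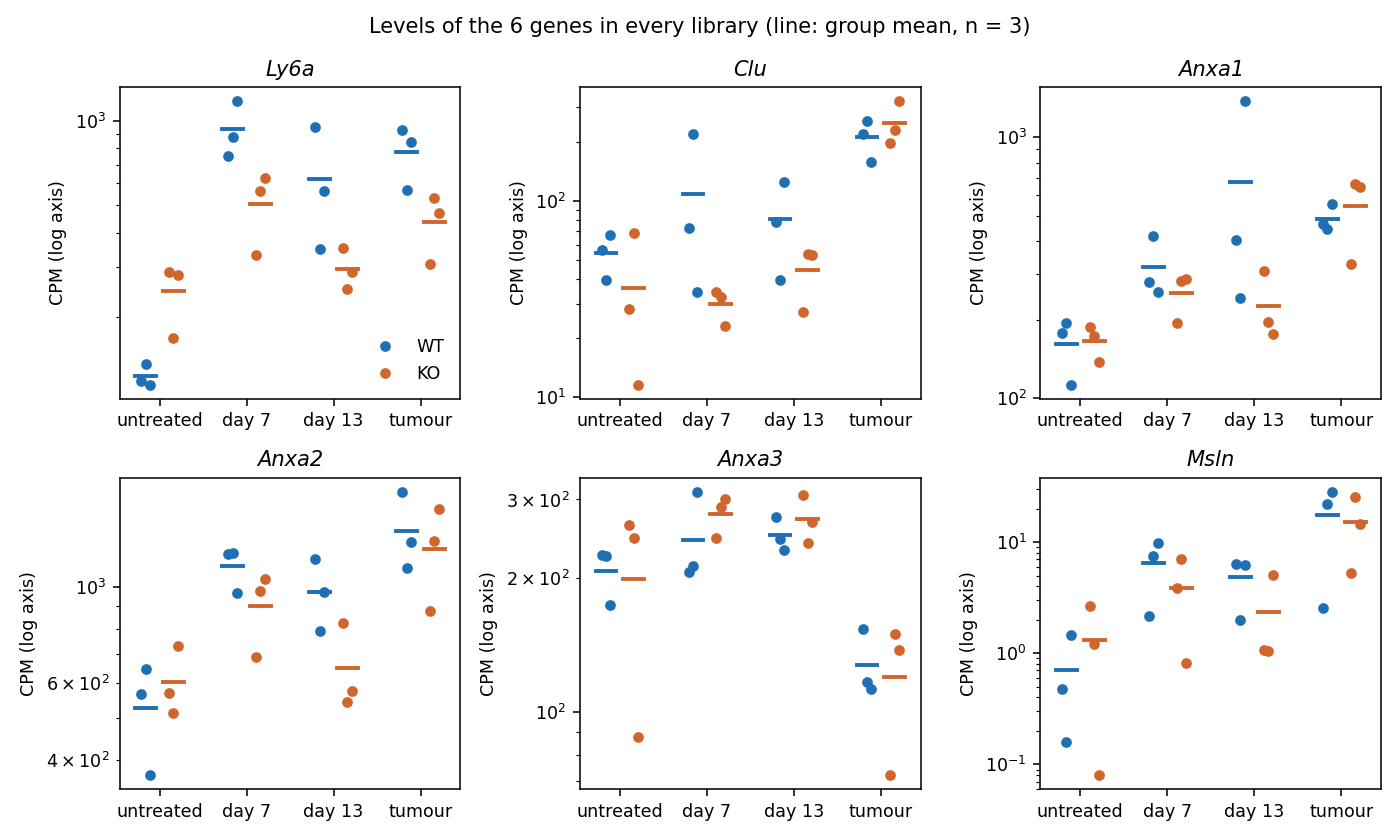
Level of each gene in all 24 libraries, in CPM on a log axis, for WT (blue) and KO (orange) colon and tumours; points are libraries and lines the mean of 3. Ly6a is lowest in untreated WT colon (114.3 to 135.8 CPM) and Clu, Anxa2 and Msln have their highest means in tumours, where Anxa3 has its lowest.

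Per length and library, the genes differed widely in untreated WT colon. Anxa2 had 586.9 ± 158.6 TPM (mean ± SD, n = 3), Anxa3 260.2 ± 43.0, Ly6a 242.6 ± 20.9 and Anxa1 165.9 ± 44.2 TPM. Clu had 47.9 ± 12.3 TPM and Msln 0.697 ± 0.681 TPM. The libraries of Anxa3 and Ly6a overlapped, while Msln was near the lower end of what these libraries can measure. At day 7 the order in WT colon was led by Ly6a with 1780.7 ± 346.5 TPM, above Anxa2 with 1196.4 ± 241.5 TPM, and their libraries overlapped.

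Ly6a, the surface protein, showed the largest change in colitis among the genes that passed. Untreated WT libraries held 117.9, 135.8 and 114.3 CPM, and WT day 7 libraries 752.2, 879.6 and 1178.1 CPM. The groups did not overlap, and the rise was 2.88 ± 0.35 (adjusted p = 0.00064). At day 13 the WT libraries held 957.8, 347.8 and 564.5 CPM, a rise of 2.32 ± 0.34 over untreated (adjusted p = 0.00669). Replicate 2 was the lowest of these and still above every untreated WT library. Untreated KO libraries held 289.4, 167.2 and 282.7 CPM, all above untreated WT, and KO day 7 libraries held 331.1, 562.9 and 625.7 CPM. The rise at day 7 in KO was 1.04 ± 0.33 (adjusted p = 0.0491), and leaving out any of 5 of the 6 libraries of these groups ended that call (adjusted p up to 0.179). KO day 13 libraries, at 352.7, 251.2 and 287.9 CPM, overlapped untreated KO (0.28 ± 0.32, adjusted p = 0.905). WT tumours held 929.8, 566.3 and 840.7 CPM and KO tumours 308.3, 533.1 and 471.5 CPM. In order of means the groups ran from untreated WT (122.7) through untreated KO (246.4), KO day 13 (297.3), KO tumours (437.6), KO day 7 (506.6), WT day 13 (623.3) and WT tumours (778.9) to WT day 7 (936.7). Only the lowest step, untreated WT to untreated KO, was between groups that did not overlap.

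Interferon-response genes and markers of other cells were read beside Ly6a. The 15 interferon-response genes summed to 188.0 to 239.3 CPM in untreated WT, 422.0 to 849.2 at WT day 7 and 292.4 to 412.5 at KO day 7. At day 13 the sums were 462.1 to 884.1 CPM in WT and 305.9 to 457.0 in KO, and in tumours 328.5 to 1955.8 and 388.9 to 516.5 CPM. In untreated KO the sums were 287.2 to 2516.1 CPM, wholly above untreated WT. The median difference of the 15 genes there was 2.52, and none passed. In untreated KO replicate 3 the sum was 2516.1 CPM and Ly6a was at 282.7 CPM. In replicate 1 they were at 621.3 and 289.4 CPM, and in replicate 2 at 287.2 and 167.2 CPM. Across 24 libraries, log2 CPM of Ly6a and of the sum had a Pearson r of 0.57. For the 12 neutrophil genes r was 0.7, for the 10 endothelial genes 0.3 and for the 12 macrophage genes 0.45, all over libraries that share groups. Over the 18 colon libraries r was 0.51 for the interferon sum, 0.73 for the neutrophil sum and 0.68 for the goblet cell sum. The part of these genes and cells in the Ly6a result was not tested.

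Msln, the other lipid-anchored surface protein, was scarce in colon and highest in tumours. Untreated WT libraries held 0.477, 0.158 and 1.47 CPM and untreated KO libraries 2.67, 1.2 and 0.0801 CPM. WT day 7 libraries held 2.15, 7.55 and 9.71 CPM, all above untreated WT, but the difference of 3.15 ± 1.09 did not pass (adjusted p = 0.0613; DESeq2 gave 0.0102). KO day 7 libraries, at 3.85, 6.98 and 0.822 CPM, overlapped untreated KO. WT day 13 libraries held 6.33, 2.01 and 6.19 CPM and KO day 13 libraries 1.07, 1.04 and 5.01 CPM, with differences from untreated of 2.76 ± 1.08 (adjusted p = 0.147) and 0.85 ± 1.01 (adjusted p = 0.91). WT tumours held 2.54, 22.0 and 28.2 CPM and KO tumours 5.31, 25.4 and 14.6 CPM. Each tumour library lay above every untreated library of its genotype. The rises in tumours were 4.66 ± 1.18 in WT (adjusted p = 0.0033) and 3.51 ± 1.11 in KO (adjusted p = 0.0131), the latter 2.96 ± 1.21 without the libraries that stood apart (adjusted p = 0.0544). In the order of means every neighbouring pair of groups overlapped.

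Mesothelium, the outer lining of the gut, also makes Msln, and 1 of its markers ordered the day 7 libraries of each genotype as Msln did while the marker list as a whole did not follow Msln. Upk3b, a mesothelial membrane protein, held 1.61, 5.18 and 9.82 CPM in the WT day 7 libraries and 2.74, 6.09 and 0.338 CPM at KO day 7, the same order of libraries as Msln. In the 6 tumours Upk3b was at most 0.0387 CPM, and Wt1, a mesothelial transcription factor, was at 0 in all of them. WT day 13 libraries held 0.251 to 0.773 CPM of Upk3b. The summed level of all 8 mesothelial markers was 22.3 to 111.3 CPM in untreated WT, 23.3 to 86.2 at WT day 7, 8.07 to 82.1 in WT tumours and 8.3 to 15.9 in KO tumours. Pearson r between Msln and that sum was -0.54 over 24 libraries and -0.16 over the 18 colon libraries. Of the 8 markers, 4 were under 0.1 CPM in all WT tumours and 3 in all KO tumours, Upk3b and Wt1 among them. The tumour sums therefore came almost wholly from the other markers of the list. In WT day 7 colon the sum was highest in replicate 1 (86.2 CPM), where Upk3b was lowest (1.61 CPM). At KO day 7 the sums of 31.7, 41.1 and 28.9 CPM had the order of Upk3b. Whether the other markers came from mesothelium was not tested in tumours or in colon. The sum and its r are therefore no measure of mesothelium in tumours and no sure measure of it in colon. WT tumour replicate 1, with the sum of 82.1 CPM, had the lowest Msln of the WT tumours (2.54 CPM). The part of mesothelium in the Msln values was not tested.

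**Figure D2:**
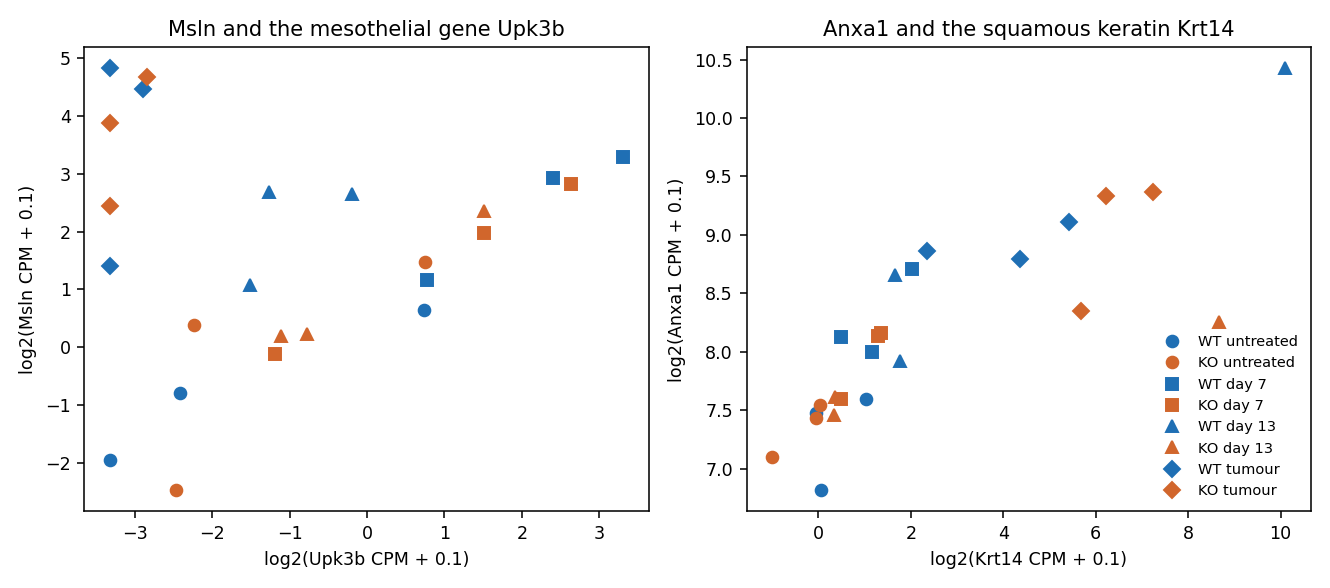
Each point is a library; colour gives genotype and shape the condition, and both axes are log2(CPM + 0.1). Left, Msln rises with Upk3b in day 7 colon, while tumours combine high Msln with Upk3b of at most 0.0387 CPM; right, the WT day 13 library with 1099.1 CPM of Krt14 has the highest Anxa1 (1373.8 CPM).

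Clu, the secreted chaperone, was higher in tumours of both genotypes and variable in WT colitis. Untreated libraries held 56.6, 39.4 and 66.9 CPM in WT and 28.3, 68.5 and 11.6 CPM in KO. WT day 7 libraries held 72.8, 219.3 and 34.2 CPM, and KO day 7 libraries 34.2, 32.4 and 23.1 CPM. The WT group spanned from below to far above untreated WT, and its difference of 0.94 ± 0.64 (adjusted p = 0.325) became -0.07 without WT day 7 replicate 2. That library also held 430.9 CPM of endothelial and 3694.6 CPM of fibroblast markers, against at most 184.5 and 1338.2 in the other WT day 7 libraries. At day 13 the libraries held 78.3, 39.4 and 125.2 CPM in WT and 27.1, 53.5 and 53.0 CPM in KO, overlapping untreated colon in both genotypes. WT tumours held 218.8, 255.0 and 158.9 CPM and KO tumours 197.4, 231.1 and 322.1 CPM. Both groups lay wholly above untreated colon of their genotype, by 1.96 ± 0.60 in WT (adjusted p = 0.0118) and 2.79 ± 0.62 in KO (adjusted p = 0.00122). Without untreated WT replicate 2 the WT difference was 1.77 ± 0.70 (adjusted p = 0.0517). Every neighbouring pair of groups in the order of means, from KO day 7 (29.9) to KO tumours (250.2), overlapped.

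Endothelium, macrophages and fibroblasts can also make Clu. Over the 24 libraries Pearson r of log2 values was 0.8 with the endothelial sum, 0.85 with the macrophage sum and 0.73 with the fibroblast sum, and -0.74 with the epithelial sum. Macrophage markers summed to 213.7 to 233.5 CPM in untreated WT colon, 468.5 to 904.6 in WT tumours and 417.9 to 798.8 in KO tumours. Endothelial markers summed to 144.2 to 154.7, 184.2 to 263.2 and 172.8 to 232.7 CPM in the same groups. Fibroblast markers summed to 1120.7 to 1858.1, 1447.4 to 2234.9 and 1528.7 to 2031.8 CPM, so WT tumours overlapped untreated WT. In untreated KO colon the sums were 125.7 to 229.4 (macrophage), 123.1 to 150.6 (endothelial) and 856.8 to 1114.6 CPM (fibroblast). The part of these cells in the Clu values was not tested.

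Anxa1, the formyl peptide receptor ligand, was higher in tumours of both genotypes and in WT colon at day 13. Untreated libraries held 178.1, 193.3 and 112.6 CPM in WT and 186.9, 172.7 and 137.2 CPM in KO. At day 7 they held 279.6, 419.1 and 256.1 CPM in WT and 193.5, 281.9 and 285.9 CPM in KO. All day 7 libraries lay above untreated colon of their genotype, yet neither 0.92 ± 0.47 (WT, adjusted p = 0.187) nor 0.62 ± 0.47 (KO, adjusted p = 0.437) passed. WT day 13 libraries held 403.5, 242.8 and 1373.8 CPM, a rise of 2.04 ± 0.48 (adjusted p = 0.0325). Replicate 3 stood far above the others, and without it the difference was 0.97 ± 0.31 (adjusted p = 0.104). The call was also lost without WT day 13 replicate 1 (0.0589) or without any untreated WT replicate (0.0908 to 0.117). WT day 13 replicate 3 was the squamous-rich library, with 1099.1 CPM of Krt14 and 1641.6 CPM of Krt5, keratins of stratified epithelium. KO day 13 libraries held 305.8, 195.8 and 175.5 CPM of Anxa1, and the highest was again the library with squamous genes. WT tumours held 466.6, 443.7 and 553.8 CPM and KO tumours 326.8, 660.0 and 646.1 CPM, all above untreated colon, by 1.60 ± 0.45 (adjusted p = 0.00706) and 1.72 ± 0.46 (adjusted p = 0.00447). In the order of means only the step from WT day 7 (318.3) to WT tumours (488.0) was between groups that did not overlap.

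Squamous markers in tumours were higher than in most colon libraries, with sums of 24.6, 50.6 and 112.3 CPM in WT and 87.7, 709.3 and 147.0 CPM in KO tumours. KO tumour replicate 2, with the highest of these sums, held 660.0 CPM of Anxa1, close to the 646.1 CPM of replicate 3. Pearson r between Anxa1 and the squamous sum was 0.83 over 24 libraries and 0.79 over the 18 colon libraries, and r with the neutrophil sum was 0.85 and 0.82. Their part in the Anxa1 values was not tested.

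Anxa2, the partner of S100a10, had the highest mean TPM of the 3 annexins in every group. Untreated libraries held 564.9, 647.5 and 368.7 CPM in WT and 569.7, 513.1 and 731.5 CPM in KO. WT day 7 libraries, at 1185.3, 1192.0 and 967.4 CPM, lay wholly above untreated WT, a rise of 1.02 ± 0.23 (adjusted p = 0.00999). KO day 7 libraries held 689.7, 976.8 and 1042.6 CPM and overlapped untreated KO (0.58 ± 0.23, adjusted p = 0.119). WT day 13 libraries held 1155.0, 789.0 and 971.3 CPM, above untreated WT by 0.86 ± 0.23, which missed the threshold (adjusted p = 0.0511; 0.0369 without the 4 libraries that stood apart). KO day 13 libraries held 826.6, 543.6 and 576.7 CPM and overlapped untreated KO. WT tumours held 1648.4, 1104.0 and 1266.0 CPM and KO tumours 877.1, 1269.6 and 1508.9 CPM. Both rose over untreated colon, by 1.35 ± 0.25 in WT (adjusted p = 0.000282) and 1.01 ± 0.25 in KO (adjusted p = 0.00282). All neighbouring groups in the order of means overlapped, from untreated WT (527.1) to WT tumours (1339.5).

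Anxa3 did not share the course of the other annexins. Untreated libraries held 225.4, 223.5 and 174.2 CPM in WT and 262.7, 246.4 and 87.9 CPM in KO, where replicate 3, the interferon-rich library, was the low value. Colitis libraries of both genotypes and times lay between 206.4 and 311.8 CPM, and none of the 4 differences from untreated passed (0.17 to 0.49). WT day 13 libraries, at 231.0 to 274.3 CPM, lay wholly above untreated WT (0.24 ± 0.29, adjusted p = 0.67), and the other colitis groups overlapped untreated colon of their genotype. WT tumours held 153.3, 116.5 and 112.5 CPM and KO tumours 72.1, 149.5 and 137.5 CPM. WT tumours lay wholly below untreated WT, with -0.70 ± 0.31 (adjusted p = 0.0664), and KO tumours overlapped untreated KO through that replicate 3, with -0.73 ± 0.31 (adjusted p = 0.0558). Without untreated KO replicate 3 the KO difference was -1.09 ± 0.24 (adjusted p = 0.00151), and DESeq2 called Anxa3 lower in both genotypes (adjusted p = 0.0288 in WT and 0.0252 in KO). Markers of colonocytes, the absorptive cells of the surface, summed to 6711.3 to 7625.6 CPM in untreated WT and 418.3 to 1367.7 CPM in WT tumours. Untreated KO replicate 3, with the low Anxa3 value, held 15540.2 CPM of these markers. Pearson r between Anxa3 and the colonocyte sum was 0.65 over 24 libraries and -0.57 over the 18 colon libraries. The part of colonocytes in the Anxa3 values was not tested.

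At day 7 of the DSS experiment, the question was how injured colon differed from untreated colon of the same genotype. In WT, Ly6a and Anxa2 rose, 2 of 6 genes, beside 8.5% of all 18102 genes tested called higher. In all, 4 of the 6 were wholly above untreated WT (18.7% of all genes). The median of the 6 was 0.98, against 0.03 over all genes. In KO only Ly6a passed, 1 of 6, beside 8.57% of all genes called higher, and 2 of 6 were wholly above untreated KO (18.8% of all genes). The median of the 6 was 0.60 in KO against -0.04 over all genes. With a covariate for Y-linked expression Anxa2 in WT missed the threshold (adjusted p = 0.0732), and so did Ly6a in KO (0.321).

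The same question was asked at day 13. Ly6a and Anxa1 passed in WT, 2 of 6 genes, beside 3.21% of all genes called higher, and 5 of 6 were wholly above untreated WT (15.4% of all genes). The median of the 6 was 1.45 against 0.00 over all genes. In KO none of the 6 passed with edgeR, beside 0.0276% of all genes called, with 0 at an unadjusted p under 0.05 (7.62% of all genes). DESeq2 called 0 of the 6 there, beside 121 of 18102 genes. The median in KO was 0.38 against -0.01. Without the 4 libraries whose sample numbers repeat within the colon set, none of the 6 passed in WT, and Ly6a then stood at 2.40 ± 0.41 (adjusted p = 0.0522). Between day 13 and day 7 no gene of the 6 passed in WT (0.0608% of all genes called) or KO (12.8%). Unadjusted p was under 0.05 for Anxa1 in WT (16.9% of all genes) and Ly6a in KO (25.9%). DESeq2 called none of the 6 between the times, beside 751 (WT) and 3109 (KO) of 18102 genes.

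Tumours were compared with untreated colon of the same genotype. Ly6a, Msln, Clu, Anxa1 and Anxa2 rose in each genotype, 5 of 6 genes, beside 27.6% of all 19056 genes called higher in WT and 26.4% in KO. The same 5 were wholly above untreated colon in each genotype (33.3% and 32.5% of all genes), and Anxa3 was wholly below in WT (26.8%). The medians of the 6 were 1.78 in WT and 1.36 in KO, against 0.09 and 0.04 over all genes. Ly6a in KO tumours rose by only 0.83 ± 0.33 (adjusted p = 0.043), and leaving out any of 5 of the 6 libraries compared ended that call (adjusted p up to 0.172). RLE size factors, no low count filter, the Y-linked covariate and a fit of only the groups compared ended it too. So did leaving out the 4 libraries that stood apart or the 4 whose sample numbers repeat within the colon set (adjusted p up to 0.197 in these settings). Smooth muscle markers summed to 5939.3 to 8859.2 CPM in untreated WT colon and 152.8 to 262.7 CPM in WT tumours, and the part of tissue makeup in these differences was not tested. Against day 7 colon, averaged over genotypes, tumours had more Clu (2.01 ± 0.43, adjusted p = 0.000651) and Anxa1 (0.86 ± 0.32, adjusted p = 0.0279) and less Anxa3 (-1.08 ± 0.22, adjusted p = 0.000454), 3 of 6 genes beside 53.7% of all genes called. The Anxa1 call was lost without any of 6 libraries (WT day 7 replicate 1 or 3, KO day 7 replicate 1, KO tumour replicate 2 or 3, WT tumour replicate 3; adjusted p up to 0.0644), and without KO tumour replicate 1 Msln and Anxa2 passed as well. Ly6a differed by -0.24 ± 0.23 (adjusted p = 0.398).

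**Figure D3:**
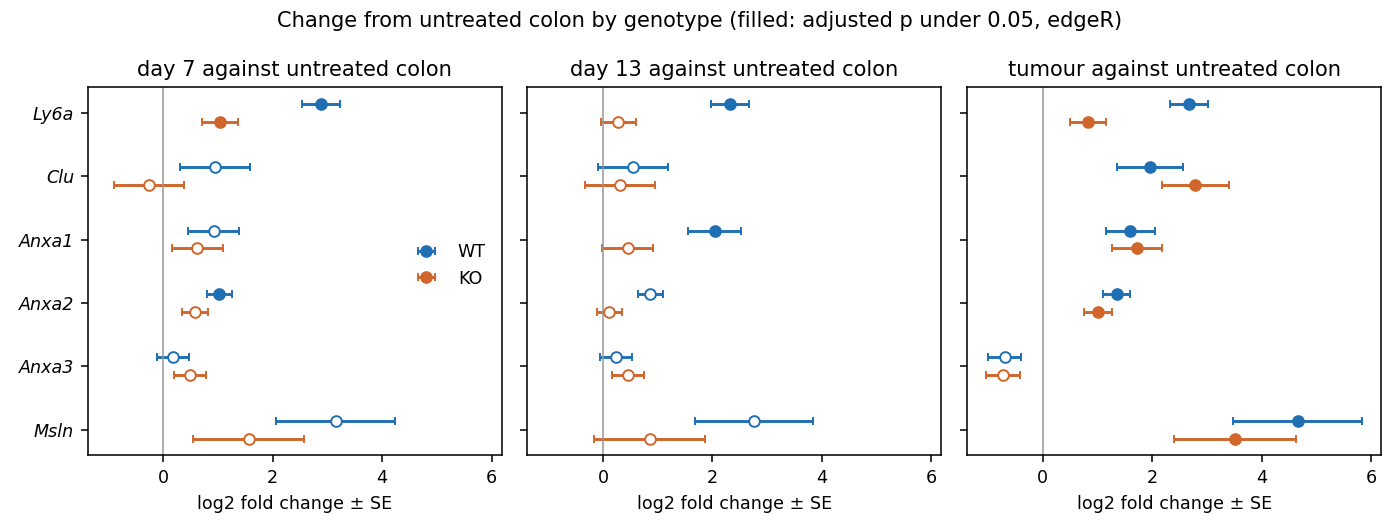
Log2 fold change ± SE of each gene in day 7 colon, day 13 colon and tumours against untreated colon, for WT (blue) and KO (orange), from 3 libraries per group; filled points passed the test. Ly6a in WT lies between 2.32 and 2.88 in all 3 panels and in KO between 0.28 and 1.04.

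KO and WT were compared within each condition to ask what the loss of Axin1 changed. No gene of the 6 passed with edgeR in untreated colon (0.011% of all genes called), at day 7 (0.00552%), at day 13 (2.51%), on average over the colon conditions (4.84%) or in tumours (0%), where Axin1 itself had -1.60 ± 0.11 with an adjusted p of 0.0866. Unadjusted p was under 0.05 for Ly6a in untreated colon (6.53% of all genes), for Ly6a and Clu at day 7 (27%), for Ly6a, Anxa1 and Anxa2 at day 13 (18.2%), for Clu and Anxa1 on average (25.5%), and for Ly6a in tumours (3.79%). DESeq2 called Clu lower in KO at day 7 and on average, and Ly6a and Anxa1 lower at day 13. Of 18102 genes, DESeq2 called 2447 at day 7, 2466 on average and 1337 at day 13 in either direction. With edgeR, Ly6a and Anxa1 also passed at day 13 without WT day 13 replicate 2 (adjusted p = 0.0197 and 0.0109), beside 1384 of 18571 genes. Anxa1 then passed on average as well (0.0459, beside 2012 genes). Without WT day 7 replicate 3, Clu passed at day 7 (0.0358, beside 2438 of 18635 genes) and on average (0.0334, beside 2249).

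Ly6a had KO libraries wholly above WT in untreated colon (0.98 ± 0.33, adjusted p = 0.624; 9.06% of all genes) and wholly below at day 7 (-0.85 ± 0.33, adjusted p = 0.116; 13.9% of all genes) and in tumours (-0.83 ± 0.27, adjusted p = 0.942; 5.07% of all genes). At day 13 the difference was -1.05 ± 0.33 (adjusted p = 0.101), with a slight overlap between 352.7 CPM in KO and 347.8 CPM in WT. Clu in KO at day 7 met WT at 34.2 CPM, the highest KO and the lowest WT value to the digits given. Its difference of -1.82 ± 0.66 (adjusted p = 0.102) was -0.81 ± 0.60 without WT day 7 replicate 2. Anxa1 differed by -1.57 ± 0.48 at day 13 (adjusted p = 0.0943), where the high WT library was the squamous-rich one. Anxa3 differed by -0.09 to 0.23 over the 4 conditions, with SE of 0.29 in each. At day 13 genotype and sex cannot be told apart within the groups compared.

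The difference between genotypes in the response itself was tested as an interaction. For Ly6a the KO response was smaller than the WT response by -1.83 ± 0.46 at day 7 (adjusted p = 0.191) and by -2.04 ± 0.46 at day 13 (adjusted p = 0.0902). The genotype difference in the change from untreated colon to tumour was -1.84 ± 0.47 (adjusted p = 0.294), a comparison added after the values were seen. None of the 3 passed with edgeR, while DESeq2 called each of them (adjusted p = 0.012, 0.00218 and 0.0311). Of all genes, DESeq2 called 363 and 575 of 18102 at day 7 and day 13, and 91 of 19056 for tumours. Without WT day 13 replicate 2 or untreated KO replicate 2 the day 13 difference of Ly6a passed with edgeR (adjusted p = 0.0142 and 0.048). These fits called 399 of 18571 and 92 of 18581 genes. No other of the 6 genes passed under either tool, with unadjusted p under 0.05 for Anxa1 and Anxa2 at day 13. Over all genes edgeR called 0%, 0.011% and 0% in these comparisons, and 13.7%, 13.5% and 8.67% had an unadjusted p under 0.05. The 3 interactions share the untreated libraries, and in them untreated KO was above untreated WT.

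**Figure D4:**
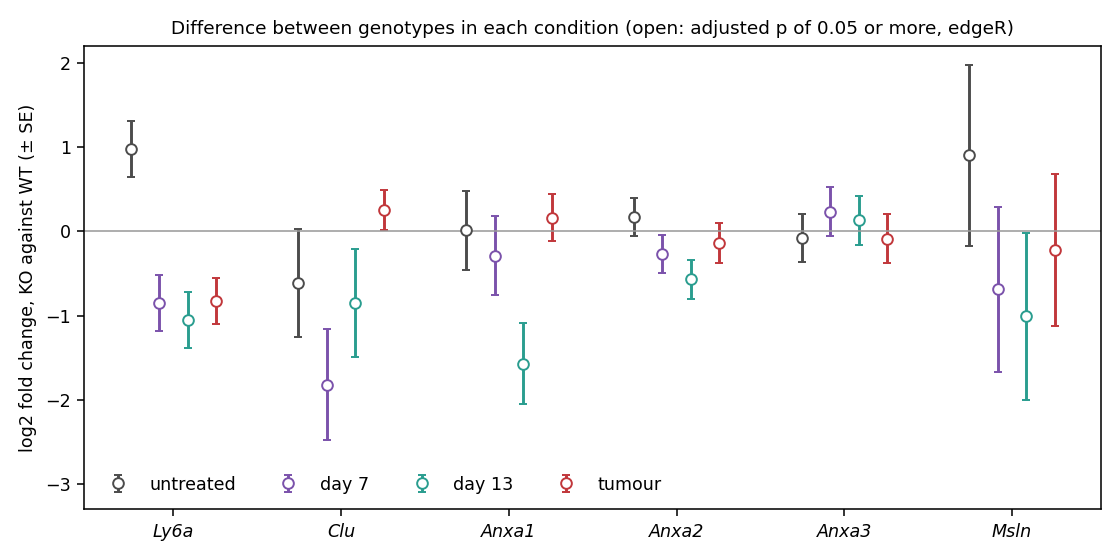
Log2 fold change of KO against WT ± SE for each gene in untreated, day 7 and day 13 colon and in tumours, 3 libraries per group; all points are open because none passed with edgeR. Ly6a is at 0.98 in untreated colon and between -1.05 and -0.83 in the other conditions.

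Other genes of the fetal-like programme were read from a list of 22, of which 21 were tested. In WT colon at day 7, 9 rose (8.5% of all genes did) and none fell, with a median of 1.22 against 0.03 over all genes. Areg (2.47 ± 0.42, adjusted p = 0.00232) and Ereg (3.93 ± 0.82, adjusted p = 0.00608) encode growth factors that bind the EGF receptor family. Plaur, the urokinase receptor, rose by 2.75 ± 0.47 (adjusted p = 0.00239) and Tnfrsf12a, the receptor for TWEAK, by 1.92 ± 0.42 (adjusted p = 0.00806). In KO at day 7, 2 of 21 rose, Tnfrsf12a (1.50 ± 0.41, adjusted p = 0.0281) and Areg (1.38 ± 0.41, adjusted p = 0.0372), beside 8.57% of all genes, with a median of 0.00 against -0.04. At day 13, 4 of 21 rose in WT (3.21% of all genes) and none in KO (0.0276% called). In tumours 15 of 21 rose in WT (27.6% of all genes) and 14 in KO (26.4%), with medians of 2.33 and 2.08 against 0.09 and 0.04. Between genotypes at day 13, 4 of 21 were lower in KO, among them Plaur (-2.75 ± 0.48, adjusted p = 0.0133) and Anxa5 (-1.07 ± 0.21, adjusted p = 0.0201). All genes called in this comparison made up 2.51% of those tested. With the Y-linked covariate 1 of 18102 genes was called, against 455 without it, so at least 3 of these 4 calls were lost.

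Relatives and partners of the 6 genes were read in the same way, beside the same shares of all genes called higher: 8.5% in WT and 8.57% in KO at day 7, 3.21% in WT at day 13, and 27.6% in WT and 26.4% in KO tumours. Of 8 other Ly6 genes tested, 2 rose in WT at day 7, Ly6c1 by 3.21 ± 0.51 (adjusted p = 0.00176) and Ly6e by 0.81 ± 0.20 (adjusted p = 0.013), and none in KO. Ly6c1 has a near-identical copy, Ly6c2, between which reads may be split. In tumours 4 rose in WT and 2 in KO. Of 8 other annexins tested, none rose in colitis, and Anxa13, a gut epithelial annexin, fell in WT at day 7 (-1.60 ± 0.41, adjusted p = 0.0184) and in tumours (-2.51 ± 0.39 in WT and -3.05 ± 0.41 in KO). Anxa5 rose in tumours by 1.36 ± 0.22 in WT and 1.51 ± 0.22 in KO. Of 7 partners and receptors tested, 4 rose in WT at day 7 and day 13. They were the formyl peptide receptors Fpr1 and Fpr2, which myeloid cells also make, the reelin and clusterin receptor Lrp8 (2.55 ± 0.32 at day 7) and the annexin-binding S100a11 (1.21 ± 0.32). Fpr1 was at 0 in all untreated WT libraries and at 0.941, 2.11 and 0.313 CPM at WT day 7, and Fpr2 went from at most 0.311 CPM to 1.97, 2.81 and 0.94 CPM. Lrp8 alone of the 7 rose in KO at day 7 (2.97 ± 0.32, adjusted p = 0.000126). At day 13 the same 4 were lower in KO than WT, beside 2.51% of all genes called, with Lrp8 at -1.67 ± 0.31 and S100a11 at -1.46 ± 0.33. As for the fetal-like genes, at most 1 of these calls can remain with the Y-linked covariate. Fpr1 held 0.376 to 5.36 CPM in WT and at most 0.097 CPM in KO, and Fpr2 1.0 to 5.94 CPM and at most 0.156 CPM. Neutrophil markers summed to 40.2 to 421.2 CPM in WT and 0.939 to 13.6 CPM in KO at day 13, and their part in these values was not tested.

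Regulators and adult stem cell genes were read from further lists. Of all genes, 8.5% in WT and 8.57% in KO were called higher at day 7, and 27.6% and 26.4% in tumours. In either direction, 2944 (WT) and 2288 (KO) of 18102 genes were called at day 7, and 9290 and 9501 of 19056 in tumours. Of 18 YAP and TEAD target genes none rose and 1 fell in WT at day 7 (Crim1, -0.80 ± 0.23, adjusted p = 0.0274), and in KO 1 rose (Gadd45b, 0.80 ± 0.19) and 2 fell. In tumours 3 rose and 3 fell in WT, and 6 rose and 3 fell in KO. Of 13 Hippo pathway genes, Tead4 (1.55 ± 0.42, adjusted p = 0.0218) and Tead1 (0.63 ± 0.19, adjusted p = 0.0351), which encode DNA-binding partners of YAP, rose in WT at day 7, and Vgll4, a TEAD-binding repressor, fell (-0.49 ± 0.12, adjusted p = 0.0114). In tumours 7 of the 13 rose in each genotype, and none fell in WT and 1 in KO. Among 16 crypt stem cell and Wnt genes, Lgr5 (-2.85 ± 0.75, adjusted p = 0.0202) and Axin2, a direct beta-catenin target (-0.59 ± 0.18, adjusted p = 0.0351), fell in WT at day 7, and Ephb2 rose. In KO at day 7 only Ephb2 passed, while Lgr5 had -1.38 ± 0.71 (adjusted p = 0.227). In tumours 12 of 16 rose and 2 fell in each genotype, beside 27.6% (WT) and 26.4% (KO) of all genes called higher, with Axin2 higher by 3.63 ± 0.26 in WT and 3.65 ± 0.26 in KO.

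**Figure D5:**
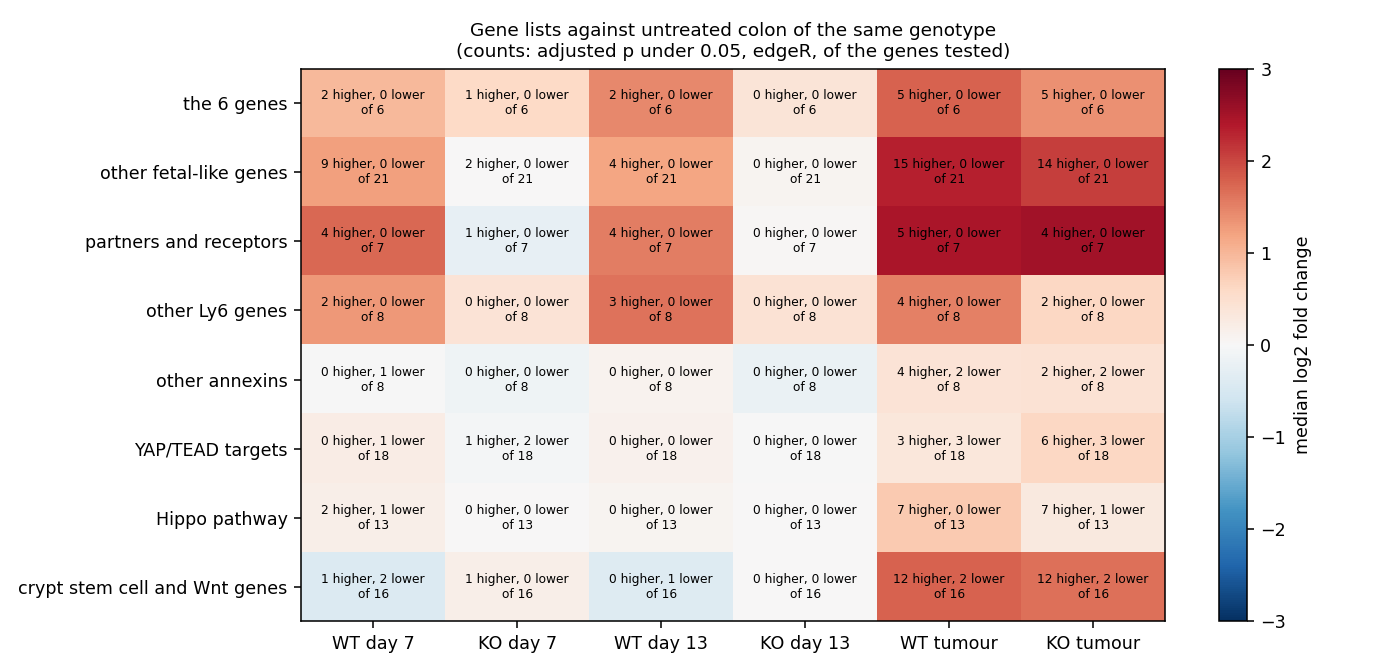
Gene lists (rows) in each comparison with untreated colon of the same genotype (columns); colour is the median log2 fold change and the text gives how many genes passed the test in each direction of those tested. Other fetal-like genes go from 9 of 21 higher in WT day 7 and 2 in KO day 7 to 15 and 14 in WT and KO tumours.

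The 6 genes varied in how far they followed each other across the 24 libraries, which share groups, depth and tissue makeup. Pearson r of log2 CPM was highest for Ly6a with Anxa2 (0.85, and 0.90 over the 18 colon libraries) and for Anxa1 with Anxa2 (0.78 and 0.69). Ly6a with Clu had 0.32, and 0.17 in colon. Anxa3 had r from -0.47 (with Clu) to 0.01 (with Ly6a) over 24 libraries. Over the 18 colon libraries its r was positive with each of the others, from 0.18 (with Clu) to 0.56 (with Msln). Among 24-library patterns of named genes with a mean of at least 2 CPM, those most like Ly6a were Clca4b (0.93), Ly6c1 (0.92) and Duoxa2 (0.92), the last a maturation factor of a hydrogen peroxide-producing oxidase. Those most like Clu were Snn (0.94), Tmem123 (0.92) and Usp11 (0.92), and those most like Anxa1 were Cxcl3 (0.90), a neutrophil attractant, Aldh1a3 (0.90) and Tgm1 (0.89), a transglutaminase of squamous epithelium. Anxa2 was matched most closely by Acot9 (0.93), the tropomyosin gene Tpm3 (0.92) and its near-copy Tpm3-rs7 (0.92), between which reads may be split. Anxa3 was matched by Capn13 (0.95), Pla2g4f (0.95) and Myo5c (0.94). The closest to Msln were lower, Pla2g2d (0.83), Krt36 (0.81) and Rgs19 (0.81).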

How the data were processed

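Tissue was washed, RNA taken up in Trizol and standard Illumina libraries made, per the labels' protocols. The submitters' processing notes name STAR 2.7.6a, RSEM 1.3.1 and GRCm38, and neither the annotation nor the strand setting is given. Per the file headers, the authors deposited for each gene an expected count, in which RSEM divides reads that match several genes, and a TPM value, scaled by effective length. GENCODE M21 gave positions and symbols for 55141 of 55487 identifiers, and the other 346 held at most 0.074% of a library's counts. Expected counts that were not whole (11.0% to 12.4% of values) were rounded.

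Tests used the quasi-likelihood F test of edgeR 4.0.16 (R 4.3.3) after TMM scaling, its default filter (minimum count 10, minimum total 15), robust estimation and Benjamini-Hochberg adjustment over all genes in each of 17 comparisons. The 18 colon libraries were fitted together (18102 genes), as were the 6 tumours (17246 genes) and, for tumour against colon, all 24 libraries (19056 genes). All 6 genes passed the filter in each fit. SE is the fold change divided by the square root of F. CPM used TMM factors over the 24 libraries. The edgeR procedure was run on simulated counts of the colon libraries for a single comparison, KO against WT at day 13. The simulation held no sex difference, no libraries that stood apart and no tumours, so it does not bear on their effect. 

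Groups came from the labels. The 6 genes, the lists and the tests were chosen with earlier results of these data known. Named genes were the 6, Axin1, up to 4 genes of a list with the smallest p in the comparison described, and for each of the 6 the 3 with the highest r of log2 CPM (prior count 2). Krt5, Krt14, Upk3b and Wt1 were singled out after their values were seen, and 1 gene of the fetal-like list is not reported here by name. The alternatives were DESeq2 1.42.0, RLE size factors, no filter, a stricter filter (1 CPM in 6 libraries, or 3 for tumours), only the groups compared, all 24 libraries, a Y-linked covariate, leaving out the 4 libraries whose sample numbers repeat within the colon set (untreated WT and KO replicate 2, WT day 7 replicate 2, KO day 7 replicate 3) or the 4 that stood apart, and each library in turn. Only the genotype difference in the tumour change was added after seeing the data. Several lists share genes, such as S100a11 and Anxa5.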

Additional observations from a re-analysis of the deposited data

Results flagged for a closer look

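Ly6a was set apart because its difference between genotypes took opposite directions in conditions whose libraries did not overlap. The ratio of mean CPM, KO to WT, was 2.01 in untreated colon, where all KO libraries lay above all WT libraries, 0.541 at day 7 and 0.562 in tumours, where all KO libraries lay below. The difference between untreated colon and day 7 was tested as an interaction, -1.83 ± 0.46 with an adjusted p of 0.191 by edgeR and 0.012 by DESeq2. That between untreated colon and tumours was -1.84 ± 0.47, with an adjusted p of 0.294 by edgeR and 0.0311 by DESeq2.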

How the results depend on the processing

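No paired analysis was possible because the labels give the libraries no shared replicate numbers, and the numbers used here follow their order alone. Of the 18 differences of single genes that passed, 275 alternatives kept 231 and lost 44, and 0 reversed. The cause of each change was not tested.

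The number of the 6 genes called moved by more than 1.5 times as follows. With DESeq2 it was 1 between genotypes at day 7, 2 at day 13, 1 on average over colon, 4 in WT at day 13, and 1 in each of the 3 interactions. In the same order, DESeq2 called 2447, 1337, 2466, 1956, 363, 575 and 91 of all genes. In WT at day 7 the number of the 6 genes called was 1 with the Y-linked covariate and 1 with only the groups compared. In KO at day 7 it was 0 with RLE size factors, no filter, the Y-linked covariate, either set of 4 libraries left out, or only the groups compared. In WT at day 13 it was 1 without the filter, 1 with the Y-linked covariate, and 0 without the libraries of repeated sample numbers or with only the groups compared. Smaller moves were to 3 in WT at day 7 with DESeq2, 3 in WT at day 13 with RLE size factors, all 24 libraries or the libraries that stood apart left out, 4 to 6 in the tumour comparisons with untreated colon, and 2 to 4 for tumours against day 7. With each library left out in turn it ran from 0 to 1 between genotypes at day 7, 0 to 2 at day 13, 0 to 1 on average, 0 to 1 in KO at day 7, 1 to 3 in WT at day 13, 0 to 1 in the day 13 interaction and 2 to 5 for tumours against day 7.

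Every reversed value belonged to a difference that had not passed. With the Y-linked covariate these were Anxa1 between genotypes in untreated colon (-0.01), Ly6a and Msln in KO at day 13 (-0.09 and -0.06), and Anxa3 and Msln between day 13 and day 7 in WT (-0.01 and 0.50). Without the libraries of repeated sample numbers they were Clu at day 7 in WT (-0.24) and KO (0.75), between day 13 and day 7 in WT (0.61) and in the day 7 and day 13 interactions (0.99 and 0.79). In the same setting they were Anxa3 between day 13 and day 7 in WT (-0.04) and KO (0.01) and in the tumour interaction (0.10). Without the libraries that stood apart they were Clu at day 7 in WT (-0.07), between the times in WT (0.15) and in the day 13 interaction (0.07), and Msln between genotypes on average (0.15). Anxa3 then had 0.27 and -0.02 between genotypes in untreated and day 13 colon, 0.00 in KO at day 13, and -0.14 and -0.30 in the day 7 and day 13 interactions.

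Leaving out each library also turned 25 differences that had not passed. Between genotypes in untreated colon, Anxa1 ran from -0.19 to 0.16, Anxa2 from -0.03 to 0.35, Anxa3 from -0.35 to 0.28 and Msln from -0.14 to 2.03. In tumours Anxa1 ran from -0.01 to 0.42, Anxa2 from -0.32 to 0.05, Anxa3 from -0.28 to 0.17 and Msln from -0.83 to 0.30, and on average over colon Msln ran from -0.65 to 0.11. At day 7 Clu ran from -0.07 to 1.33 in WT and -0.69 to 0.58 in KO, and Anxa3 from -0.06 to 0.28 in WT. In KO at day 13 Anxa2 ran from -0.09 to 0.26, Msln from -0.31 to 1.90 and Clu from -0.12 to 1.16. Between the times in WT, Anxa3 ran from -0.03 to 0.30, Clu from -0.85 to 0.62 and Msln from -0.80 to 0.07, and in KO Anxa3 from -0.14 to 0.04 and Msln from -1.86 to 0.03. In the interactions Anxa3 ran from -0.05 to 0.58 at day 7, -0.16 to 0.47 at day 13 and -0.38 to 0.23 for tumours, Clu from -0.67 to 0.61 at day 13 and Anxa1 from -0.04 to 0.38 for tumours. Msln is the gene that depth limits most, at under 3 CPM in every untreated library.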
